A study of Mus musculus with 9 samples.

Results

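The nuclear genes of oxidative phosphorylation were examined in osteoblasts, in osteoblasts treated with SB216763 and in pulmonary endothelial cells (ECs). The set held every protein-coding nuclear gene of the mouse count table whose symbol starts with Nduf, Uqcr, Sdh, Atp5, Cox4, Cox5, Cox6, Cox7 or Cox8, which gave 97 genes of the 50686 in the table. By complex they were 36 genes of complex I, 4 of complex II, 8 of complex III, 19 of complex IV and 16 of complex V. The other 14 bear these names but are not structural subunits (Ndufaf1 to Ndufaf8, Sdhaf1 to Sdhaf4, Atp5s and Cox7a2l), and are called assembly and related genes here. Another 4 genes with matching symbols were processed pseudogenes and were left out. The table came from 9 RNA-seq libraries, 3 in each group. The control group was the untreated mouse osteoblast line MC3T3-E1, the SB216763 group was the same line after 14 days with 10 µM of this glycogen synthase kinase 3 inhibitor, and the EC group was untreated mouse pulmonary endothelial cells. The study describes these ECs as isolated by flow sorting. No culture time or vehicle is given for the control cells. Culture time therefore cannot be told apart from treatment in SB216763 against control. MC3T3-E1 is a single established line, the age and strain of the mice that gave the ECs are not stated in the labels, and the comparison of ECs with osteoblasts is therefore also a comparison of sorted cells with a culture line. Nothing in the labels says whether the 3 libraries of a group came from separate cultures or animals, so p-values measure only the spread between these libraries, which may be technical.

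Oxidative phosphorylation moves electrons from NADH and succinate through complexes I to IV to oxygen, pumps protons across the inner mitochondrial membrane, and uses their return through complex V (ATP synthase) to make ATP. Complex I oxidizes NADH, complex II oxidizes succinate, complex III passes electrons to cytochrome c and complex IV reduces oxygen. All of the subunits of complex II, and most of those of the other complexes, are encoded in the nucleus, while a few core subunits of complexes I, III, IV and V are encoded by the mitochondrial genome. Several complex IV subunits and subunit c of ATP synthase have more than 1 nuclear gene, some of them restricted to heart, skeletal muscle, lung or testis.

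The libraries held 30990107 to 68946333 counts. The 9 osteoblast markers summed to between 43930 and 59350 CPM (counts scaled to a common library size) in the control libraries, 8073 to 8346 in the SB216763 libraries and 45.3 to 64.7 in the EC libraries. In both osteoblast groups nearly all of this sum was Col1a1 and Col1a2 (means 24510 and 27830 CPM in control, 2732 and 5322 with SB216763). Among the rest, Sp7, Alpl, Ibsp and Bglap had lower means with SB216763. Runx2 (157.6 to 116.4 CPM) and Phex (0.74 to 0.53) fell less, and Bglap2 was higher (4.25 to 5.25). The 10 endothelial markers summed to 3.77 to 4.34 CPM in control, 4.87 to 5.45 with SB216763 and 7029 to 7237 in ECs. In both osteoblast groups 9 of the 10 were under 1 CPM. The treated libraries thus carried almost no transcripts of defining endothelial genes such as Cdh5 and Pecam1. Hematopoietic markers summed to 45.7 to 47.7 CPM in the ECs, nearly all of it Cd68. In these bulk samples fewer cells of a type and less RNA per cell cannot be told apart.

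Of the 97 genes, 92 passed the filter on low counts. The 5 that did not (Cox4i2, Cox6b2, Cox7b2, Cox8b and Cox8c) are complex IV isoforms restricted to certain tissues. A gene was called at an adjusted p under 0.01 in a single edgeR quasi-likelihood fit of all 9 libraries and 15531 genes.

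With SB216763, 22 of the 92 genes rose and 30 fell relative to control, and 40 were not called. Across all genes tested, 32.9% rose and 32.0% fell, and among the members the shares were 23.9% and 32.6%. The median log2 fold change of the members was -0.02, against 0.01 for all genes tested. Most changes were small, since 37 of the 52 called genes changed by less than 0.5 on the log2 scale, and 2 changed by 1 or more. Past the study's threshold of 4-fold with an adjusted p under 0.01, 2 members fell (Cox6a2 and Ndufa4l2) and 0 rose, while 9.65% of all genes passed it in either direction. The call counts depend on scaling. Without composition (TMM) factors the median of all genes moved to 0.22, and 46 members were then higher and 14 lower, beside 43.3% and 24.6% of all genes. The median of the members was 0.03 below that of all genes under both scalings. This difference changed sign with the libraries used. The members' median was 0.03 above that of all genes without control replicate 2, and 0.02 above it without SB216763 replicate 3.

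In ECs against control, 18 members were higher, 40 were lower and 34 were not called, where 39.0% and 37.9% of all genes were higher and lower. The members' median log2 fold change was -0.13, against 0.01 for all genes. Without TMM factors 26 members were higher and 35 lower, beside 44.1% and 32.9% of all genes. Past 4-fold, Cox7a1 was higher and Cox6a2 and Ndufa4l2 were lower, where 23.4% of all genes passed in either direction. In ECs against SB216763-treated osteoblasts, 24 members were higher and 40 lower, beside 40.3% and 38.3% of all genes. Cox6a2 was the single member past 4-fold there, beside 25.3% of all genes in either direction. By complex, ECs had 4 genes higher and 19 lower than treated osteoblasts in complex I, 0 and 2 in complex II, 5 and 2 in complex III, 6 and 2 in complex IV, 8 and 8 in complex V and 1 and 7 among the assembly and related genes. Without TMM factors these were 3 and 22, 0 and 3, 4 and 2, 4 and 3, 7 and 8, and 1 and 7, beside 37.9% and 41.2% of all genes. The comparisons share libraries and are given side by side.

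**Figure D1:**
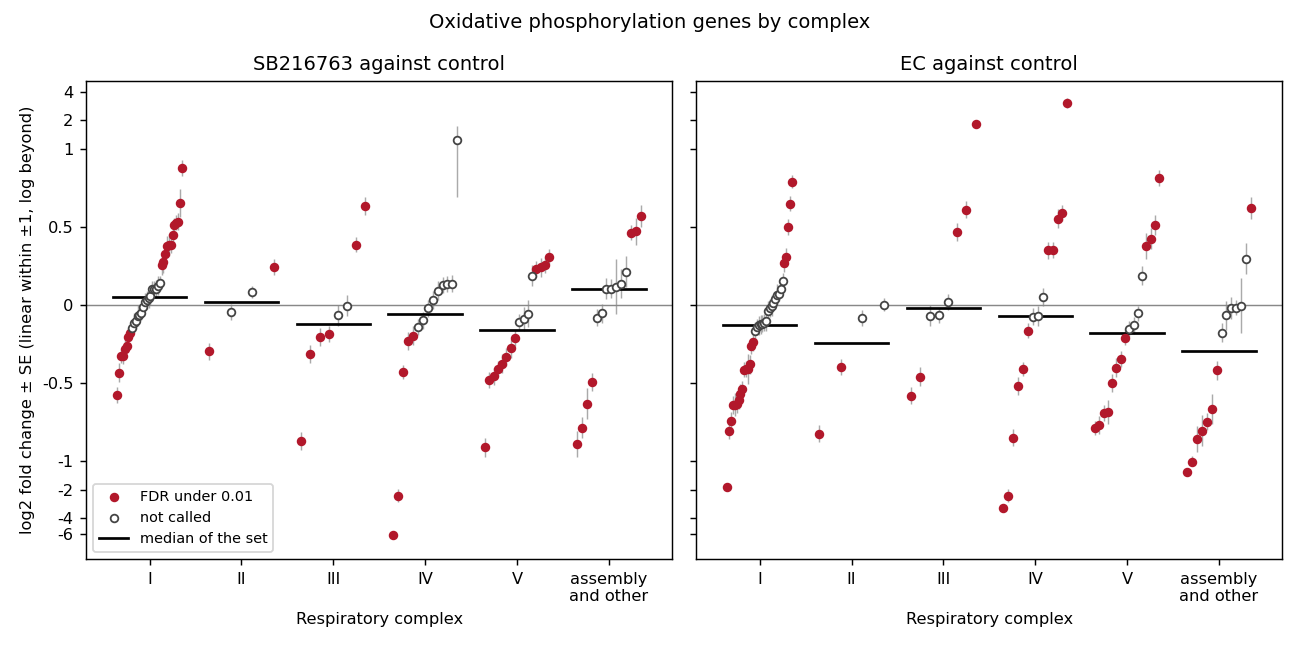
Log2 fold change of each tested gene with its standard error (SE), sorted within each complex, for SB216763 against control (left) and ECs against control (right). The vertical axis is linear within ±1 and logarithmic beyond it, filled points have an adjusted p under 0.01, and black lines are the medians. In complex I the points spread on both sides of 0 with SB216763, and Cox6a2 and Ndufa4l2 lie far below the rest of complex IV.

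Promoter sequence was available for 80 of the 97 members (RefSeq, GRCm38.p6), as windows from 250 bases before to 50 bases after each annotated start. The windows were searched on both strands for letters of 4 regulators linked to mitochondrial genes, namely NRF1 (GCATGCGC), ETS factors such as GABPA (CCGGAAGT), YY1 (AAGATGGCG) and the estrogen-related receptors (TCAAGGTCA). The NRF1 letters were found for 12 members (15.0%), against 3.94% of 17492 protein-coding genes, and the YY1 letters for 8 (10.0%), against 2.14%. The ETS letters were found for 5 members (6.25%), against 5.69%, and the receptor letters for 2 (2.5%), against 0.377%. The protein-coding genes were taken whether or not they are expressed in these cells. Median GC content was 58.6% for the members and 56.3% for the protein-coding genes. The part of expression and GC content in these shares was not tested. The NRF1 letters lay in 7 of 23 members that fell with SB216763, 3 of 20 that rose and 2 of 34 that were not called. In the same order, the ETS letters lay in 0, 3 and 2, the YY1 letters in 2, 4 and 2, and the receptor letters in 1, 0 and 1. Of the 7 that fell with NRF1 letters, Ndufa8, Sdhb, Uqcrc1, Cox6a1 and Atp5g2 lost their call without TMM factors. These splits were not tested. The 4 windows printed here show matches in a gene that fell (Ndufaf4), in genes that rose (Ndufa6 and Uqcr11) and in the widespread Cox6a isoform (Cox6a1). Each is written 5′ to 3′ on the strand of its gene with the searched letters in capitals. The NRF1 letters are marked in the first 3 and the ETS letters in Uqcr11. In Ndufaf4 and Cox6a1 the reverse-strand match overlaps the marked letters.
Ndufaf4, chr4:24897946-24898005, plus strand: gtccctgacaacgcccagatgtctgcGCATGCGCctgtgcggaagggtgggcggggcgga
Ndufa6, chr15:82354341-82354400, minus strand: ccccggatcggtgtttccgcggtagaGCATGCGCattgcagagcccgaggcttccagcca
Cox6a1, chr5:115349085-115349144, minus strand: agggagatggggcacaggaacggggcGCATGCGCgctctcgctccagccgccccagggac
Uqcr11, chr10:80406854-80406913, minus strand: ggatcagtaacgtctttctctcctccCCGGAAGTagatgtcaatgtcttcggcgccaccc
A match shows that these letters stand in the window and nothing about binding.

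Complex I, the NADH dehydrogenase, held genes that rose and genes that fell with SB216763. Of its 36 genes, 12 rose (33.3%) and 8 fell (22.2%), and without TMM factors 23 rose and 2 fell. Over all genes tested, 32.9% rose and 32.0% fell, or 43.3% and 24.6% without TMM factors. The largest rise was that of Ndufv3, an accessory subunit of the NADH-oxidizing module (chr17:31520115-31531331, GRCm38). Ndufv3 stood at 54.4, 57.9 and 53.7 CPM in control libraries, 101, 108 and 94.9 in SB216763 libraries and 49.8, 49.0 and 51.8 in ECs. All SB216763 libraries lay above all others, and the log2 fold change against control was 0.87 ± 0.05 (SE, edgeR adjusted p = 3.47e-10). Ndufb2, also an accessory subunit, rose by a log2 fold change of 0.65 ± 0.09, from 5.62, 5.99 and 5.94 CPM to 9.55, 8.13 and 9.86. Its annotation overlaps another gene on the same strand, so its counts are uncertain. Ndufb10 and Ndufa6, also accessory subunits, each rose by a log2 fold change of 0.53.

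The largest fall in complex I was that of Ndufs4, an accessory subunit whose loss causes Leigh syndrome. It was 65.0, 69.3 and 66.2 CPM in control, 44.6, 47.9 and 41.9 with SB216763 and 37.5, 38.0 and 39.0 in ECs. Both groups lay below control without overlap, with log2 fold changes of -0.58 ± 0.05 and -0.81 ± 0.05. Ndufa9, another accessory subunit, fell by a log2 fold change of -0.43 ± 0.06 with SB216763. Of the 7 nuclear core subunits, which carry the flavin and the iron-sulfur clusters or the quinone site, 2 rose with SB216763 (Ndufv2 and Ndufs7, log2 fold changes 0.38 and 0.45) and 2 fell (Ndufs1 and Ndufs8, -0.26 and -0.18). Without TMM factors 5 of them rose and 0 fell, Ndufs8 changed sign, and the call of Ndufs1 was lost.

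Against control, 5 of the 36 complex I genes (13.9%) were called higher for ECs and 15 (41.7%) lower, or 9 and 12 without TMM factors. All genes tested had shares of 39.0% and 37.9%, or 44.1% and 32.9% without TMM factors. The share of complex I called lower was thus near that of all genes, and the share called higher was smaller. The largest difference was in Ndufs5, an accessory subunit (chr4:123712710-123718202). It was 37.6, 40.2 and 36.6 CPM in control, 40.8, 39.1 and 36.1 with SB216763 and 11.3, 10.4 and 9.89 in ECs. The osteoblast groups overlapped, and the ECs lay below them by a log2 fold change of -1.85 ± 0.07 against control (edgeR adjusted p = 2.09e-13). Ndufs1, the largest iron-sulfur core subunit, went the other way. Its levels were 63.9, 64.3 and 61.8 CPM in control, 51.7, 54.2 and 52.7 with SB216763 and 109.7, 108.7 and 110.1 in ECs, so that ECs were highest and treated osteoblasts lowest with no overlap. Its exons overlap Eef1b2 on the other strand, and the strand setting of the counting is not stated in the sources used here. Exons of 31 members overlap a gene on the other strand, among them Ndufaf3, Sdhaf2, Cox4i1, Atp5a1, Atp5f1 and Atp5j. The part of the overlapping genes in these counts was not tested.

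Complex II, the succinate dehydrogenase shared with the tricarboxylic acid cycle, had 1 gene higher and 1 lower with SB216763, and 3 higher and 0 lower without TMM factors. Sdha, the flavoprotein, and Sdhd, a membrane anchor, were not called, with log2 fold changes of 0.08 ± 0.04 and -0.05 ± 0.05. Sdhb, the iron-sulfur subunit, fell from 89.2, 93.4 and 87.5 CPM to 72.9, 78.8 and 68.2, and was 49.6, 51.7 and 51.6 in ECs. Each group lay apart from the next, in the order control, SB216763, EC, and the call against control with SB216763 (-0.30 ± 0.05) was lost without TMM factors. Sdhc, the other anchor, rose with SB216763 (0.24 ± 0.05) and was lower in ECs than in control (-0.40 ± 0.05).

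Complex III, the cytochrome bc1 complex, had 2 genes higher and 4 lower with SB216763, and 2 higher and 1 lower without TMM factors. Its largest fall was in Uqcrfs1, the Rieske iron-sulfur protein that takes the first electron from ubiquinol (chr13:30540308-30545362). Uqcrfs1 was 107, 124 and 115 CPM in control, 62.8, 65.5 and 61.0 with SB216763 and 78.5, 73.2 and 79.8 in ECs. The treated libraries were lowest, the control libraries highest, and no libraries of different groups overlapped. The log2 fold change was -0.87 ± 0.06 with SB216763 (edgeR adjusted p = 1.09e-09) and -0.58 ± 0.06 in ECs. Uqcrh, the hinge protein, rose from 79.1, 89.5 and 80.3 CPM to 129.5, 137.8 and 118.5 with SB216763 (0.63 ± 0.06), and was 59.1, 61.7 and 60.4 in ECs. Uqcr11, a small accessory subunit, rose by a log2 fold change of 0.38 ± 0.05. The core proteins Uqcrc1 and Uqcrc2 fell by log2 fold changes of -0.18 and -0.31, and without TMM factors Uqcrc1 changed sign and the call of Uqcrc2 was lost.

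The ECs stood apart in Uqcr10, a small membrane subunit of complex III (chr11:4701973-4704342). Its levels were 19.1, 20.9 and 19.3 CPM in control, 18.3, 21.1 and 17.3 with SB216763 and 68.7, 72.0 and 70.9 in ECs. The osteoblast groups overlapped, and the EC level was higher than control by a log2 fold change of 1.83 ± 0.06 (edgeR adjusted p = 1.08e-13).

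Complex IV, cytochrome c oxidase, had 0 genes higher and 5 lower (35.7%) of 14 tested with SB216763, beside 32.9% and 32.0% of all genes. Without TMM factors 6 were higher and 3 lower, beside 43.3% and 24.6% of all genes. Cox4i1 and Cox5b were not called, with log2 fold changes of 0.09 ± 0.06 and 0.03 ± 0.06, nor was Cox5a (-0.10 ± 0.05). Cox7c fell from 97.8, 100.3 and 95.5 CPM to 72.6, 75.6 and 69.7, and was 73.9, 71.7 and 75.6 in ECs. Ndufa4, which is expressed in most tissues, fell with SB216763 by -0.23 ± 0.06, a call that was lost without TMM factors. In ECs 5 of the 14 genes (35.7%) were higher than control and 6 (42.9%) lower, or 6 and 5 without TMM factors. Over all genes tested these shares were 39.0% and 37.9%, or 44.1% and 32.9% without TMM factors. Cox5a and Cox6a1 were among the higher, with log2 fold changes of 0.59 ± 0.05 and 0.55 ± 0.06, and Ndufa4 and Cox8a among the lower, with -0.85 ± 0.06 and -0.52 ± 0.06.

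The largest change of any member was in Cox6a2, the heart and skeletal muscle isoform of subunit 6a (chr7:128205435-128206387). Control libraries held 341, 263 and 109 of its reads, SB216763 libraries 2, 3 and 2, and EC libraries 13, 25 and 27. These are 5.37, 4.79 and 3.79 CPM, then 0.0573, 0.0782 and 0.0545, then 0.298, 0.761 and 0.625. The groups did not overlap. Summed over each group, the control rate was 76.1 times the SB216763 rate (95% exact interval 36.7 to 189.9) and 8.92 times the EC rate (6.91 to 11.7), where the intervals cover counting error only. The edgeR adjusted p was 1.12e-10 for SB216763 and 1.82e-09 for ECs. Its exons overlap Itgad on the other strand, whose mean was 0.0403 CPM in control and 0.00869 with SB216763. Striated muscle markers summed to 1.33 to 1.84 CPM in control, with 8 of 9 under 1 CPM, and to 0.2 to 1.5 CPM with SB216763 and 11.2 to 15.1 CPM in ECs. Their part in the Cox6a2 difference was not tested. Scaled to exon length, Cox6a2 made up 3.35% ± 0.62 (SD, n = 3) of the 2 Cox6a genes in control, 0.0538% ± 0.0070 with SB216763 and 0.285% ± 0.125 in ECs. Cox6a1, the widespread isoform, made up the rest, and its own level fell slightly with SB216763 (-0.20 ± 0.06) and changed sign without TMM factors.

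Ndufa4l2, a hypoxia-inducible relative of the complex IV subunit Ndufa4, was low throughout (chr10:127514967-127517154). It had 31, 28 and 23 counts in control, 5, 3 and 4 with SB216763 and 3, 4 and 6 in ECs. Control lay above both other groups, at 5.11 times the SB216763 rate (2.77 to 10.3) and 5.13 times the EC rate (2.84 to 10.0). Its exons overlap Shmt2 on the other strand, which was at 268.3, 77.3 and 235.2 CPM in control, SB216763 and ECs. Reads of such a pair cannot be told apart where strand is not used, and the part of Shmt2 in the Ndufa4l2 counts was not tested. Cox7a1, the muscle isoform of subunit 7a, was 0.0788, 0.0546 and 0.0347 CPM in control, 0.229, 0.0782 and 0.136 with SB216763 and 0.573, 0.518 and 0.510 in ECs. The ECs were highest without overlap (log2 fold change 3.07 ± 0.40 against control), and the rise with SB216763 was not called (1.22 ± 0.53, edgeR adjusted p = 0.0506). Cox7a1 remained at most 1.6% of the 2 Cox7a genes in any library. Cox4i2, the lung isoform of subunit 4, had 27 counts over the 3 EC libraries and 2 over each osteoblast group, and Cox4i1 made up over 99% of the pair in every library. Cox6b2 reached at most 0.0927 CPM in any library, and Cox8c had 0 counts in all 9.

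**Figure D2:**
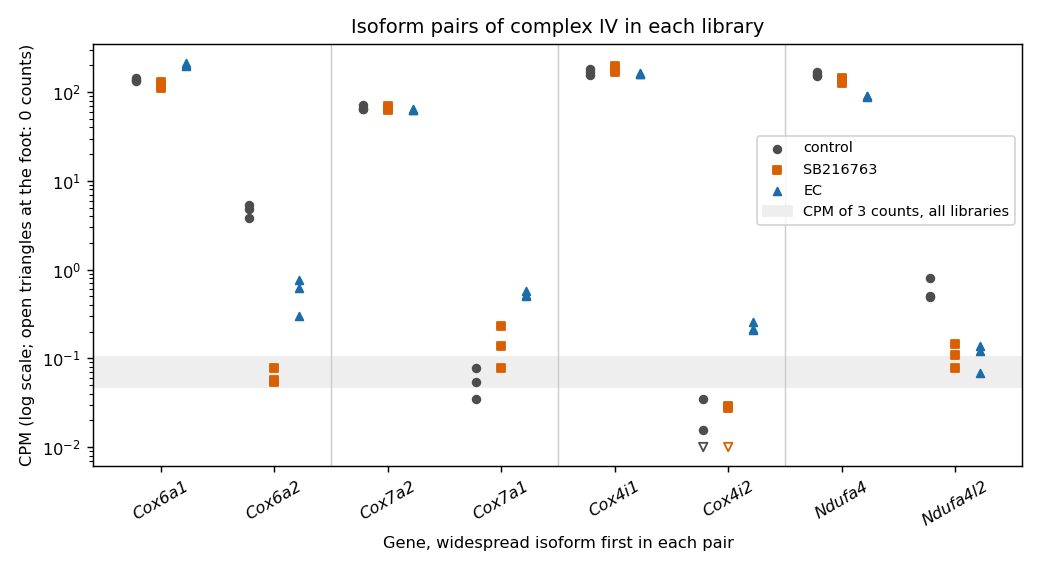
CPM of 4 isoform pairs of complex IV in each library, on a logarithmic axis, with the widespread gene first in each pair. The grey band is the CPM that 3 counts correspond to across the 9 libraries, and open triangles at the foot are libraries with 0 counts. Cox6a2 drops from 3.79 to 5.37 CPM in control into the band with SB216763, while the 4 widespread genes stay at 62.2 CPM or above.

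Complex V, the ATP synthase, had 4 genes higher and 8 lower of 16 with SB216763, and 5 and 4 without TMM factors. Grouped by place in the enzyme, a grouping made after the values were seen, the 5 genes of the F1 head that carries out catalysis had 3 lower and 0 higher, and the 3 c ring genes were all lower. Without TMM factors the F1 head had 2 lower and 0 higher, and its median log2 fold change went from -0.21 to -0.01. Atp5b, the catalytic beta subunit, fell from 1387, 1470 and 1359 CPM to 1025, 1074 and 972, and was 1270, 1270 and 1313 in ECs. The treated libraries lay below all others, with a log2 fold change of -0.46 ± 0.05 (edgeR adjusted p = 1.37e-06). Atp5a1, the alpha subunit, and Atp5c1, the gamma subunit of the rotating stalk, fell with SB216763 by log2 fold changes of -0.21 ± 0.05 and -0.41 ± 0.05. Without TMM factors these were -0.01 and -0.20, and the call of Atp5a1 was lost. Both were lower still in ECs, by -0.69 ± 0.05 and -0.79 ± 0.05 against control.

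The c ring turns as protons pass and is made of 1 protein encoded by 3 genes. Atp5g1 (chr11:96068852-96075670) fell most, from 145, 153 and 142 CPM in control to 76.7, 85.0 and 72.1 with SB216763, and was 106, 111 and 117 in ECs. The groups did not overlap, and the log2 fold change was -0.91 ± 0.06 with SB216763 (edgeR adjusted p = 1.07e-09). Atp5g2 and Atp5g3 fell by -0.38 ± 0.06 and -0.33 ± 0.06. Without TMM factors 1 of the 3 was still called lower and 0 were called higher. Scaled to exon length, Atp5g1 made up 13.0% ± 0.20 (SD, n = 3) of the 3 genes in control, 9.20% ± 0.14 with SB216763 and 12.6% ± 0.45 in ECs. ECs were distinct in the other 2 genes, with Atp5g2 at 45.6% ± 0.77 against 31.4% ± 0.98 in control, and Atp5g3 at 41.8% ± 0.73 against 55.6% ± 0.97. The shares depend on the length used. With the longest transcript in place of all exons, Atp5g1 made up 6.06% in control, 4.18% with SB216763 and 5.96% in ECs, and in ECs Atp5g3 (48.0%) was above Atp5g2 (46.1%), the reverse of their order by exon length.

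**Figure D3:**
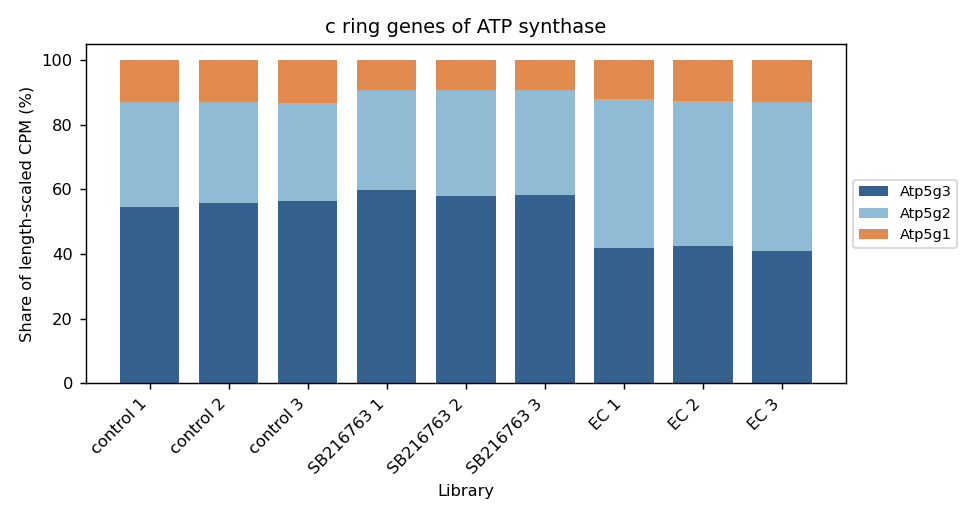
Share of the 3 c ring genes in the sum of their CPM scaled to exon length, in each of the 9 libraries. Atp5g1 takes 9.09 to 9.36% in SB216763 libraries and 12.1 to 13.2% in the others, and Atp5g2 takes 44.7 to 46.1% in ECs against 30.4 to 32.7% in the osteoblast libraries.

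The peripheral stalk, which holds the head still, was mixed. Atp5f1 (subunit b) and Atp5o (the oligomycin sensitivity protein) fell with SB216763 by log2 fold changes of -0.48 ± 0.05 and -0.28 ± 0.06 (the call of Atp5o was lost without TMM factors), and Atp5h (subunit d) and Atp5j (coupling factor 6) rose by 0.23 ± 0.05 and 0.31 ± 0.05. Of the 4 small membrane subunits, Atp5k and Atp5j2 rose with SB216763 (0.26 ± 0.05 and 0.24 ± 0.06), and all 4 were higher in ECs than in control, also without TMM factors. Atp5k, subunit e, which helps synthase dimers form, was 39.9, 41.0 and 36.2 CPM in control, 47.0, 48.6 and 44.8 with SB216763 and 69.6, 69.5 and 66.6 in ECs.

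**Figure D4:**
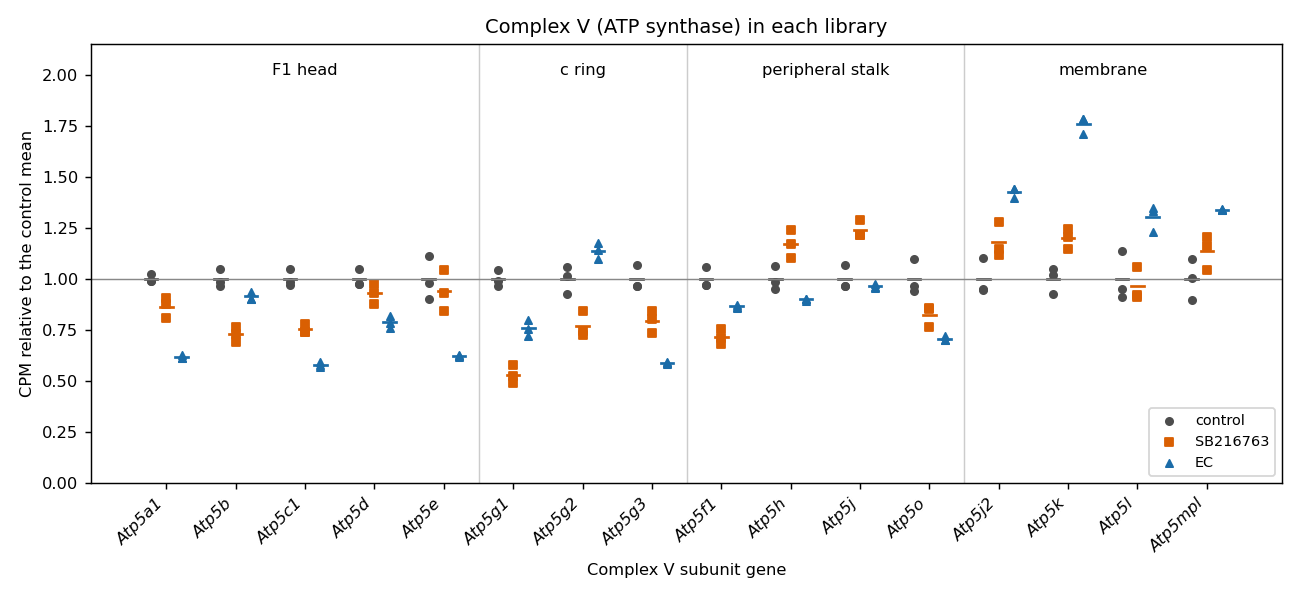
CPM of each complex V gene in each library relative to the mean of the control libraries, with short lines at the group means. Atp5g1, Atp5f1 and Atp5b lie lowest with SB216763, and the EC libraries of the 4 membrane subunits lie above all osteoblast libraries.

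The assembly and related genes had 3 higher (21.4%) and 4 lower (28.6%) with SB216763, beside 32.9% and 32.0% of all genes. Without TMM factors these were 7 and 4, beside 43.3% and 24.6% of all genes. The 4 that fell (Ndufaf5, Ndufaf4, Ndufaf6 and Ndufaf2) all serve complex I assembly. So do Ndufaf3, which rose, and Ndufaf1, Ndufaf7 and Ndufaf8, which were not called. Ndufaf5, a hydroxylase of a core subunit, was 17.1, 18.4 and 16.2 CPM in control, 8.14, 10.0 and 9.80 with SB216763 and 8.70, 10.1 and 9.89 in ECs. The treated and EC libraries overlapped, and both lay below control (log2 fold changes -0.89 ± 0.08 and -0.86 ± 0.08). Ndufaf4 fell from 36, 34.6 and 32.7 CPM to 21.8, 19.3 and 19.1 and was not called in ECs. Ndufaf3, Atp5s and Sdhaf2 rose by log2 fold changes of 0.57, 0.47 and 0.46. In ECs 1 of the 14 was higher than control and 7 were lower. Among these was Cox7a2l, which helps join complexes III and IV into supercomplexes, at 246, 272 and 250 CPM in control, 246, 268 and 226 with SB216763 and 104, 104 and 105 in ECs (-1.29 ± 0.06).

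Summed over all 97 genes, the level was 9353 ± 426 CPM in control, 8695 ± 495 with SB216763 and 8074 ± 122 in ECs (SD, n = 3). As a share of raw counts the libraries ranged from 0.839 to 0.915% in control, 0.886 to 0.970% with SB216763 and 0.808 to 0.827% in ECs, so the order of control and SB216763 depended on the scaling. Complex V summed to 4093 ± 181 CPM in control, 3349 ± 185 with SB216763 and 3344 ± 43.4 in ECs. As a share of raw counts it was 0.369 to 0.400% in control and 0.341 to 0.372% with SB216763, which overlap. Complex I summed to 2251 ± 110 CPM in control, 2392 ± 137 with SB216763 and 1977 ± 35 in ECs, and complex II to 520 ± 14.0, 540 ± 24.6 and 438 ± 6.74. Complex III summed to 667 ± 39.1, 635 ± 37.2 and 738 ± 10.8 CPM, and complex IV to 1330 ± 67.3, 1300 ± 83.5 and 1281 ± 28.4. The assembly and related genes summed to 492 ± 19.9, 479 ± 30.1 and 296 ± 3.65 CPM. Levels per kilobase of exon in control were highest for Cox8a (370.9 CPM per kb), Atp5b (331.7) and Atp5a1 (228.6), and with the longest transcript as the length the order was Atp5b, Cox8a, Atp5g3 and Atp5a1.

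Of the 13 subunits encoded by the mitochondrial genome, 11 were tested, and 10 of them rose with SB216763 with a median log2 fold change of 1.45. Their summed level was 3635, 3027 and 5047 CPM in control, 8145, 7331 and 19680 with SB216763 and 7784, 7439 and 6861 in ECs. SB216763 replicate 3 stood far above its group. Without that library 8 of the 11 rose, with a median of 0.84, while DESeq2 on all libraries called 7 and a fit of the 2 osteoblast groups called 6. The members' own counts without that library were 24 higher and 25 lower.

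**Figure D5:**
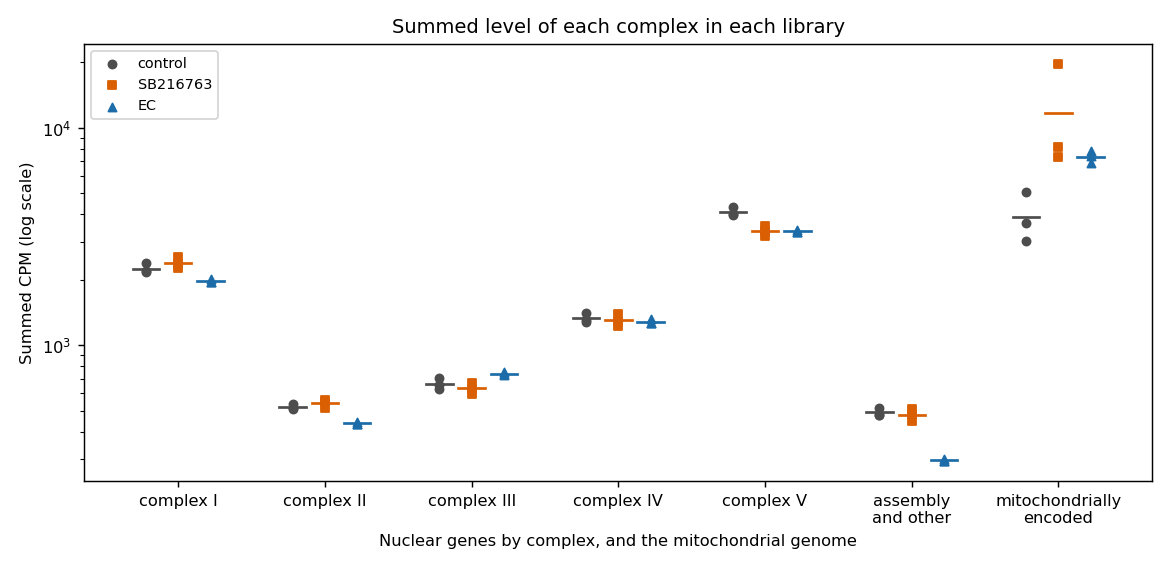
Summed CPM of each complex in each library on a logarithmic axis, for the nuclear genes and for the mitochondrially encoded subunits, with short lines at the group means. Complex V is 3969 to 4301 CPM in control, 3164 to 3533 with SB216763 and 3314 to 3394 in ECs. The assembly and related genes are 480.1 to 514.7, 448.8 to 508.9 and 292.3 to 299.5 CPM in the same order. The mitochondrially encoded sum is 3027 to 5047 CPM in control and 7331 to 19680 CPM with SB216763.

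The members also varied with the length of their coding sequence. Among 67 members under 600 coding bases, 18 rose and 15 fell with SB216763, and among 25 longer members 4 rose and 15 fell. For the other protein-coding genes the counts were 536 and 521 of 1549, and 4084 and 3898 of 11420. Over the 92 members, Spearman's rho between coding length and log2 fold change was -0.27, and over 13061 protein-coding genes it was -0.0006. For the members rho was -0.20 in ECs against control and -0.06 in ECs against SB216763, beside 0.10 and 0.08 over all. Without TMM factors the longer members Ndufs8, Atp5o, Sdhb, Ndufa10, Uqcrc2, Uqcrc1, Atp5a1 and Ndufs1 were no longer called lower. The length split and the correlation were not set in advance. They are a description across genes that share the same 9 libraries.

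Other genes of the pathway were read in fixed lists. Across all genes tested, 32.9% rose and 32.0% fell with SB216763, or 43.3% and 24.6% without TMM factors. Of 27 tested genes for electron carriers and the assembly of complexes III and IV, 10 rose and 7 fell with SB216763, and 15 and 3 without TMM factors. Cycs, the somatic cytochrome c that carries electrons between complexes III and IV, fell from 108.6, 111.8 and 107.3 CPM to 53.0, 55.9 and 52.5, and was 91.6, 93.0 and 91.3 in ECs. No libraries of different groups overlapped, and the log2 fold change with SB216763 was -1.02 ± 0.04. Of 14 tested assembly genes of complexes I and V under other names, 3 rose and 7 fell, and 4 and 3 without TMM factors. Of 21 genes of the tricarboxylic acid cycle and its entry, 3 rose and 14 fell, or 4 and 9 without TMM factors, and Cs, the citrate synthase, was among the lower (-0.64). Of 77 tested proteins of the mitochondrial ribosome, 8 rose and 39 fell with a median of -0.19, or 22 and 25 with a median of 0.01 without TMM factors. Of 13 genes of coenzyme Q synthesis, 5 rose and 6 fell, or 6 and 3 without TMM factors. Of 20 tested regulators of mitochondrial biogenesis, 5 rose and 10 fell, or 9 and 3 without TMM factors. Pprc1 (-0.67 ± 0.05), Gabpb1 (-0.49 ± 0.05) and Nrf1 (-0.24 ± 0.05) were among those that fell, and the call of Nrf1 was lost without TMM factors (-0.04), while Ppargc1b, a coactivator of mitochondrial genes, rose (0.74 ± 0.10).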

How the data were processed

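RNA was extracted and sequenced by the authors, and reads were aligned and counted per gene with STAR 2.5.3a on GRCm38, per the labels' processing notes and the study's methods. The deposited values are raw counts per Ensembl gene. The annotation release and the strand setting are not given in the sources used here. Symbols, exon lengths and overlaps were taken from GENCODE M21, which matched 50376 of 50686 identifiers. All 9 libraries and 15531 genes kept by filterByExpr were fitted together with edgeR 4.0.16 (TMM factors, quasi-likelihood test, Benjamini-Hochberg adjustment over all genes). A gene was called at an adjusted p under 0.01, and the study's fold threshold was a change of 2 or more on the log2 scale, in either direction. Each SE is the size of the fitted log2 value divided by the square root of its F statistic. CPM use TMM-scaled library sizes. The script was tested on simulated data in which a small part of the genes, all with ample counts, rose and fell equally. That test does not bear on the choice of scaling or on genes with few counts. The other settings tried were DESeq2 1.42.0, voom weights in limma 3.58.1, other scalings and filters, fits of 2 groups, a replicate block and leaving out each library.

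The members and lists were chosen with earlier results of these data known. Named genes were those past the fold threshold, the largest rises and falls of each complex, isoform pairs, core subunits and genes under 1 CPM in every group. Others (Ndufb10, Ndufa6, Ndufa8, Ndufa12, Ndufv2, Cox7c, Atp5o, Atp5h, Atp5j2, Ndufaf6, Ndufaf2, Sdhaf2 and the listed pathway genes) were named after their values were seen. So were Ndufa10, Ndufaf1, Ndufaf7 and Ndufaf8. Figures were drawn with matplotlib, and intervals were computed with scipy.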

Additional observations from a re-analysis of the deposited data

How the results depend on the processing

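With library size scaling alone, 46 members were higher and 14 lower with SB216763, with a median of 0.19, and 21 of 92 changed sign, 3 of them called before and 4 called after. These 7 were Ndufa12 (0.19), Ndufs8 (0.024), Ndufv1 (0.15), Sdhd (0.16), Uqcrc1 (0.019), Cox6a1 (0.0061) and Cox7a2 (0.18), the other 14 were called in neither, and a further 13 that had fallen lost their call. The members' median then moved to -0.0013 for ECs against control and -0.20 for ECs against SB216763. The median of all genes moved as well, to 0.13 and -0.06. The difference of the members' median from that of all genes was -0.13 for ECs against control under both scalings. For ECs against SB216763 this difference was -0.14 under both. The members' median for ECs against SB216763 was -0.15 in the fit of these 2 groups alone and -0.059 for the structural subunits alone. Without a filter on low counts, 2 members were higher past the fold threshold in ECs, against control and against SB216763. Leaving out each library in turn gave medians of -0.17 to -0.10 for ECs against control and -0.17 to -0.10 for ECs against SB216763, and 1 to 2 members higher past the fold threshold for ECs against SB216763 (2 without SB216763 replicate 1). Of the remaining values of the member counts and medians, 257 stayed within 1.5 times (counts) or the replicate spread (medians), although the median with SB216763, which is near 0, changed sign in some settings and ran from -0.07 to 0.04 as each library was left out. The settings for the mitochondrially encoded subunits, and those without TMM factors for single complexes, lists and genes, and the longest transcript for isoform shares, were chosen after seeing the data. Replicate numbers did not pair the libraries (correlations of deviations from -0.04 to 0.12). With a replicate block, 22 members were higher and 32 lower with SB216763, 20 and 42 in ECs against control, and 25 and 41 in ECs against SB216763. Genes under about 1 CPM rest on few counts, which limits Cox6a2, Ndufa4l2, Cox7a1 and Cox4i2.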
